A study of Bos taurus with 129 samples.

Results

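The genes described here supply peptides to MHC class I, the surface molecule that shows fragments of a cell's own proteins to CD8 T cells. All 9 were taken by symbol from the gene count table, where each of B2M, TAP1, TAP2, TAPBP, PSMB8, PSMB9, PSMB10, NLRC5 and ERAP1 has a row of its own among 32395 rows, and all 9 passed the filter on low counts. Whole blood of 26 post-weaned beef steers was drawn into RNA-preserving tubes at 5 times, from day 0 over days 13, 28 and 45 to day 60. This gave 59 libraries of healthy and 70 of diseased animals, because animal 48 has none for day 13. The steers received copper, cobalt, manganese and zinc from 1 of 3 programs. INR supplied them as sulfates and AAC as amino acid-complexed minerals, and COMBO combined the complexed minerals with an oral mineral drench, given before transport, on day 0 and beside any treatment for illness, so COMBO steers differed in program before the first blood sample. All steers were vaccinated against respiratory viruses and dewormed on day 0, and were vaccinated again between the second and the third blood sample. By label, 14 steers had bovine respiratory disease (BRD; 4 AAC, 3 COMBO, 7 INR) and 12 were healthy (4 per program). The dates of diagnosis and treatment are not given in the sources used here, so a BRD library may precede, accompany or follow the illness. Ages are not given in the sources used here.

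In the class I pathway, the proteasome cuts cytosolic proteins into peptides, and cells exposed to interferon gamma exchange its catalytic subunits for PSMB8, PSMB9 and PSMB10, which form the immunoproteasome. TAP1 and TAP2 form the pump that moves peptides into the endoplasmic reticulum, TAPBP (tapasin) holds the pump next to the class I heavy chain, ERAP1 trims the peptides, and B2M is the light chain of the finished molecule. NLRC5 is the transactivator that turns on most of these genes. In leukocytes the pathway is always active and rises with interferon.

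Libraries held 31613545 to 61692136 counts, and no 2 libraries were identical. Levels are given as counts scaled to a common library size (CPM) after TMM scaling, a correction for differences in RNA composition between libraries. Since CPM does not correct for transcript length, levels are compared between libraries for 1 gene and not between genes. In whole blood, fewer cells of a type and less RNA per cell cannot be told apart. The blood cell markers were present, and several moved with the day of sampling. The summed CPM of 6 erythroid markers had a median of 138.4 on day 0 and 2470 on day 13, with ranges of 19.1 to 2565 and 128.8 to 27940. For 6 neutrophil markers the medians were 2507 and 1979, with ranges of 1533 to 10510 and 1250 to 3264. Their part in the changes described next was not tested.

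Over all libraries, TAP1 had a median of 358 CPM (274 to 602), TAP2 319 CPM (187 to 523) and NLRC5 447 CPM (325 to 709). The immunoproteasome genes PSMB8 and PSMB9 ranged from 213 to 623 CPM (median 353.5 CPM) and from 69.35 to 223 CPM (mean 124.2 CPM). ERAP1 had a median of 101.2 CPM (34 to 175). Their coefficients of variation lay between 16.8% for NLRC5 and 24.6% for ERAP1. TAPBP, PSMB10 and B2M varied more. TAPBP ranged from 113.1 to 723 CPM around a median of 389 CPM, PSMB10 from 9 to 162 CPM around 57.5 CPM, and B2M from 1.15 to 31.2 CPM around 7.62 CPM. The coefficients of variation of these were 37.1%, 44.9% and 41.9%.

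**Figure D1:**
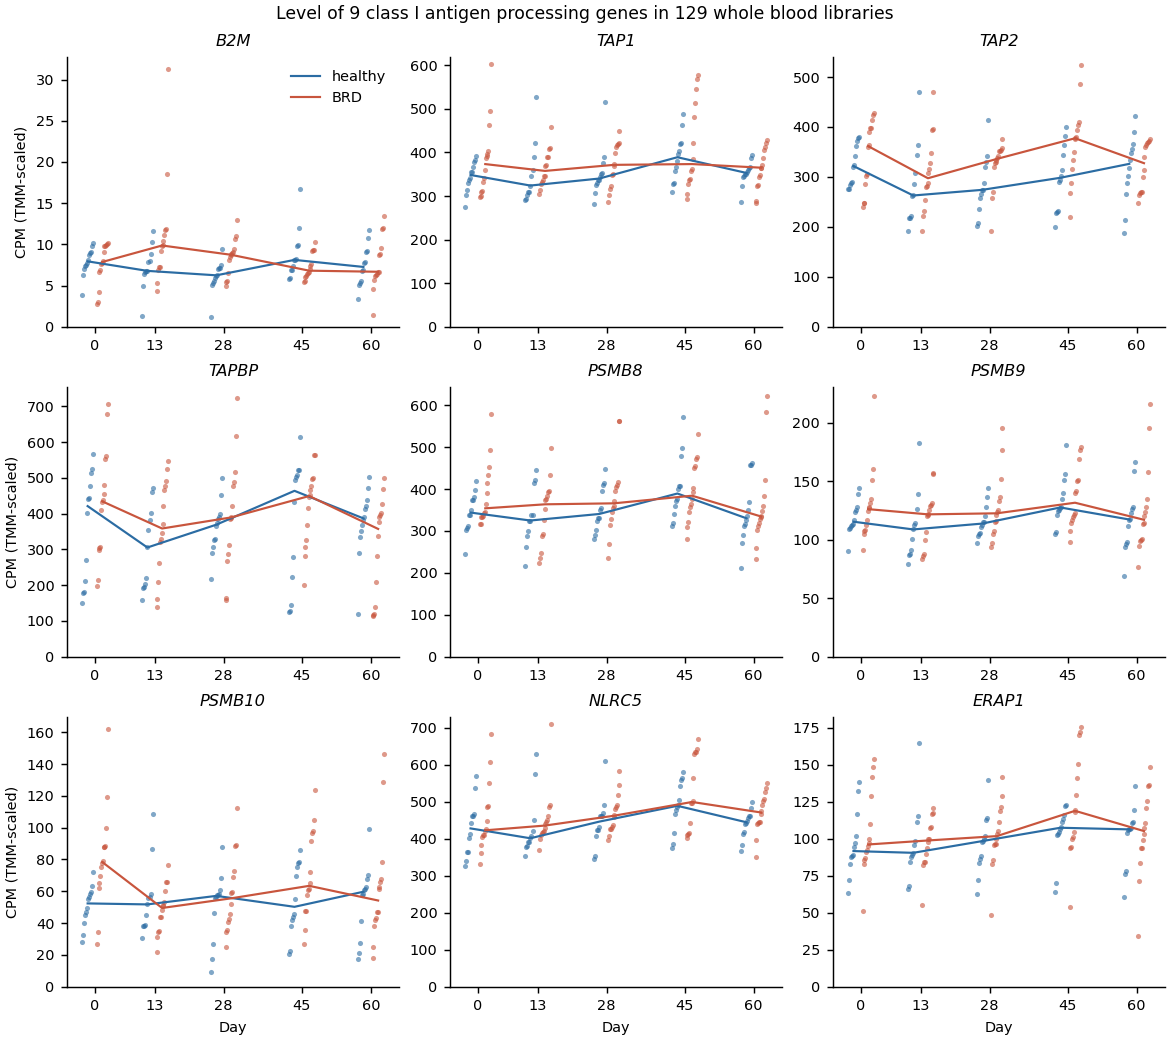
Level of each gene (vertical axis, TMM-scaled CPM from 0) by day of sampling (horizontal axis) in healthy (blue) and BRD (red) steers. Each point is 1 library, drawn from low to high within its group, and lines join the group medians. Healthy and BRD points overlap for each gene on each day, and the median lines of NLRC5 and ERAP1 in both groups are highest on day 45.

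The rows of B2M and TAPBP were set beside those of their neighbours on the chromosome. These neighbours were picked after the values were seen, and their order was read from the RefSeq annotation of ARS-UCD2.0, a later assembly than that of the counts. B2M is abundant in leukocytes in general, yet its row held only 51 to 1095 counts per library. The next gene on the chromosome, LOC783680, had a median of 4389 CPM (2743 to 6441) and correlated weakly with B2M (Pearson r = 0.13, Spearman rho = 0.14). TAPBP lies beside ZBTB22, a zinc finger gene with a median of 357 CPM (246 to 730). Libraries with low TAPBP had high ZBTB22 (Pearson r = -0.81, Spearman rho = -0.79 over all libraries of 26 steers). The sum of both rows ranged only from 631 to 1100 CPM, with a coefficient of variation of 10.5% against 37.1% for TAPBP alone. Assignment of reads between neighbouring rows was not tested. PSMB10 overlaps LCAT in that annotation, but the LCAT row stayed at 6.1 CPM or less (Pearson r = 0.36, Spearman rho = 0.42 with PSMB10).

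**Figure D2:**
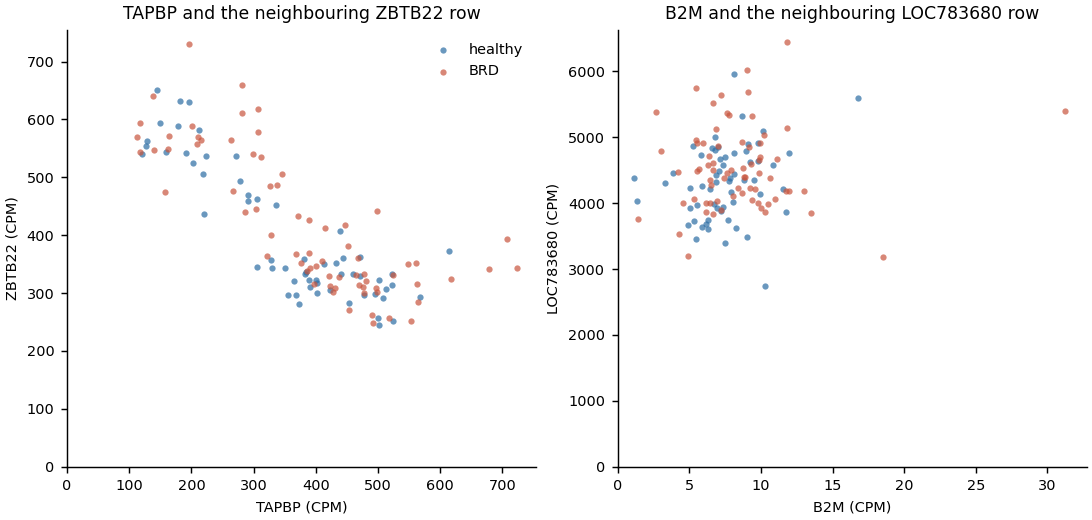
CPM of TAPBP against ZBTB22 (left) and of B2M against LOC783680 (right) in all libraries, coloured by disease label (blue healthy, red BRD). High ZBTB22 goes with low TAPBP, while LOC783680 stays at 2743 CPM or more at every level of B2M.

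To ask how the pathway changed over the trial, each later day was compared with day 0 in edgeR's quasi-likelihood test with the animal as a block, averaging the changes of BRD and healthy steers. Genes were called at a Benjamini-Hochberg adjusted p below 0.10 over 18937 genes. At most 3 of the 9 genes were called on any of these days. For B2M, TAPBP and PSMB10 the spread left after animal and day was wide, at percentiles 74.8, 79.4 and 80.8 of all genes. Small changes of these 3 could therefore go uncalled. On day 13 TAP2 alone fell, while 32.23% of all genes tested were called. On day 28 none of the 9 was called, against 35.84% of all genes. On day 45 TAP1, NLRC5 and ERAP1 rose (3 of 9), against 29.9% of all genes, and on day 60 again none was called, against 32.54%. At an unadjusted p under 0.05, 0 of 9 genes passed on days 28 and 60.

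TAP2 was measured at 239 to 427 CPM on day 0 (median 333 CPM, n = 26) and at 191 to 471 CPM on day 13 (median 286 CPM, n = 25). It fell by 0.18 on the log2 scale (SE 0.0748, adjusted p = 0.0692 in edgeR) and was lower in 17 of 25 steers. The ranges of both days overlap almost whole, and the call is lost without the day 13 library of animal 50 or without any 1 of 8 steers. Its partner TAP1 had medians of 355 and 346 CPM on these days and a fitted change of -0.01 (SE 0.0568).

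On day 45, NLRC5 rose from a median of 423 CPM (325 to 682) to 496 CPM (375 to 668, both n = 26), a log2 change of 0.20 (SE 0.0588, adjusted p = 0.00845), and was higher than on day 0 in 20 of 26 steers. ERAP1 rose from a median of 94.6 CPM (highest 154 CPM) to 109.9 CPM (53.8 to 175), a log2 change of 0.16 (SE 0.0511, adjusted p = 0.0122), higher in 19 of 26 steers. TAP1 rose from 355 CPM (274 to 602) to 383 CPM (292 to 579), a log2 change of 0.14 (SE 0.0559, adjusted p = 0.0557), higher in 16 of 26 steers. The ranges of the days overlap for each gene, and the rises were small (1.15-fold for NLRC5, 1.12-fold for ERAP1 and 1.1-fold for TAP1). The immunoproteasome genes PSMB8 and PSMB9 had similar estimates (0.12, SE 0.0751, and 0.12, SE 0.0784) that did not pass (adjusted p = 0.273 and 0.29), though each was higher in 19 of 26 steers. B2M, TAP2, TAPBP and PSMB10 had estimates between -0.06 and 0.06.

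Successive days were compared next. From day 13 to day 28 no member was called, against 1.621% of all genes. From day 28 to day 45, ERAP1 (0.175, SE 0.0511, adjusted p = 0.00805), TAP1 (0.14, SE 0.0559, adjusted p = 0.0534) and NLRC5 (0.145, SE 0.0588, adjusted p = 0.0656) rose, 3 of 9 against 28.25% of all genes. ERAP1 was higher in 22 of 26 steers, NLRC5 in 21 and TAP1 in 19. From day 45 to day 60 TAP1 fell by 0.16 (SE 0.0559, adjusted p = 0.0712, lower in 19 of 26 steers), 1 of 9 against 7.662% of all genes. At an unadjusted p under 0.05, 5 of the 9 were lower on day 60 than on day 45, and 3599 of the 18937 genes passed at that level in either direction. Among those, NLRC5 changed by -0.15 (SE 0.0587, adjusted p = 0.116), ERAP1 by -0.14 (SE 0.0511, adjusted p = 0.107), PSMB8 by -0.18 (SE 0.0752, adjusted p = 0.164) and PSMB9 by -0.17 (SE 0.0785, adjusted p = 0.221). These comparisons share libraries of days 28 and 45. The call of TAP1 between days 45 and 60 was lost without any 1 of 12 steers, that of NLRC5 between days 28 and 45 without any 1 of 13, and that of TAP1 between days 28 and 45 without any 1 of 7. For day 45 against day 0, TAP1 lost its call without any 1 of 6 steers, while NLRC5 and ERAP1 kept theirs without each of the 26.

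**Figure D3:**
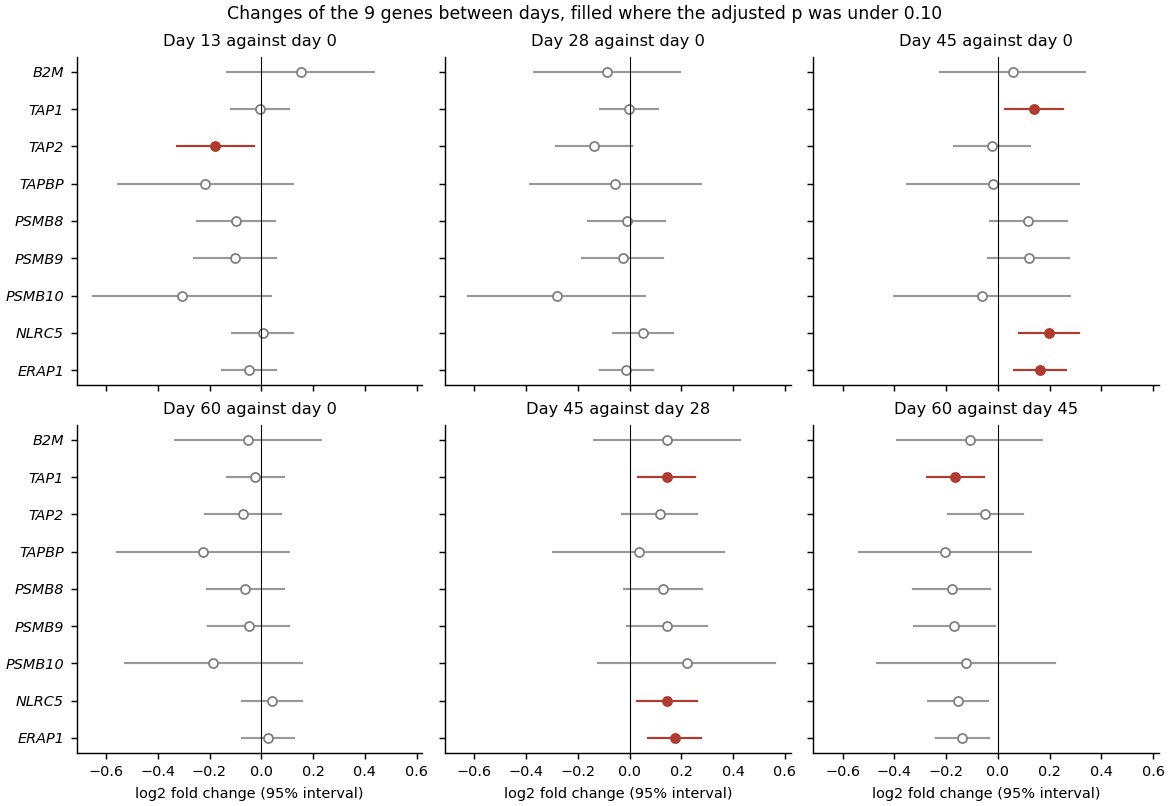
Log2 fold change (horizontal axis) of the 9 genes with its 95% interval for 6 pairs of days, in all steers. Filled red points have an adjusted p under 0.10: TAP2 on day 13, then TAP1, NLRC5 and ERAP1 on day 45 against days 0 and 28, and TAP1 on day 60 against day 45.

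In an alternative added after the values were seen, the rows of TAPBP and B2M were each summed with the neighbouring row. The sum of TAPBP and ZBTB22 had medians of 799 CPM on day 0, 740 on day 13, 740 on day 28, 800 on day 45 and 741 on day 60. It fell from day 0 to day 13 (log2 change -0.10, SE 0.0374, adjusted p = 0.0312), to day 28 (-0.12, SE 0.0369, adjusted p = 0.0103) and to day 60 (-0.11, SE 0.0369, adjusted p = 0.0217), and rose from day 28 to day 45 (0.11, SE 0.0369, adjusted p = 0.0236). TAPBP alone had an SE of 0.167 to 0.17 in these comparisons and was never called. The sum of B2M and LOC783680, nearly all of it LOC783680, fell from day 0 to day 13 (-0.18, SE 0.0499, adjusted p = 0.0055), day 28 (-0.17, SE 0.0492, adjusted p = 0.00487) and day 60 (-0.14, SE 0.0492, adjusted p = 0.0216), and was -0.07 (SE 0.0492) on day 45. The median over all libraries was 7.62 CPM for B2M and 4389 CPM for LOC783680, so this sum follows LOC783680. Whether the LOC783680 row holds reads of B2M was not tested.

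The partners of the pathway were followed in lists that were set out by function. Of 10 genes that load or trim peptides, 2 rose on day 13 and 4 rose on day 45, and 6 rose and 1 fell from day 28 to day 45. Over all genes, 32.23%, 29.9% and 28.25% were called in these comparisons, which is the background for the lists that follow too. On day 13 the risers were TAPBPL, a tapasin-related peptide editor (0.14, SE 0.0513, adjusted p = 0.0366), and TPP2, a cytosolic peptidase (0.08, SE 0.0313, adjusted p = 0.0617). None of the 3 constitutive catalytic subunits PSMB5, PSMB6 and PSMB7 passed on days 13, 28 or 45, and on day 60 PSMB7 was lower than on day 0 (-0.14, SE 0.0596, adjusted p = 0.0636). Of 4 genes for the proteasome activator and assembly, PSME3 fell on day 13 (-0.06, SE 0.0211, adjusted p = 0.0373), and PSME1, PSME2 and POMP did not pass. Of the class I heavy chains, JSP.1 had a median of 3486 CPM (1997 to 7379) and BOLA-NC1 136 CPM (13.1 to 636). They are closely related genes of a polymorphic family between which reads can be split, so their changes are uncertain. JSP.1 fell from day 0 to day 28 (-0.13, SE 0.045, adjusted p = 0.0226) and rose to day 45 (0.14, SE 0.045, adjusted p = 0.0175), while BOLA-NC1 fell from day 28 to day 45 (-0.50, SE 0.212, adjusted p = 0.0781).

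Among 18 genes of the interferon gamma pathway and of class I control, 2 rose and 3 fell on day 13, with a median change of -0.02 against 0.01 over all genes. SOCS1, which restrains cytokine signalling, fell (-0.70, SE 0.166, adjusted p = 0.000903), as did the receptor chain IFNGR1 (-0.25, SE 0.0639, adjusted p = 0.00203), and RFX5, a subunit of the factor that binds class I and class II promoters, rose (0.17, SE 0.0529, adjusted p = 0.0144). On day 45, 7 of the 18 rose and 1 fell, and from day 28 to day 45, 9 rose and none fell (median 0.10 against 0 over all genes), where 29.9% and 28.25% of all genes were called. IRF1, an interferon-induced activator of class I genes that is named here after its values were seen, had medians of 418 CPM on day 0, 413 on days 13 and 28, 539 on day 45 and 421 on day 60. It rose from day 28 to day 45 (0.35, SE 0.0953, adjusted p = 0.00375) and fell to day 60 (-0.36, SE 0.0949, adjusted p = 0.0163). Of 6 interferon gamma targets, none was called on day 13. Against day 0, IDO1 fell on day 28 (-0.29, SE 0.128, adjusted p = 0.0735), CXCL9 rose on day 45 (1.02, SE 0.457, adjusted p = 0.0965), and GBP6 (-1.34, SE 0.384, adjusted p = 0.00549), GBP4 (-0.57, SE 0.197, adjusted p = 0.0225) and GBP5 (-0.55, SE 0.208, adjusted p = 0.0384) fell on day 60. IDO1 rose from day 28 to day 45 (0.33, SE 0.127, adjusted p = 0.0513), and GBP6 fell to day 60 (-1.37, SE 0.366, adjusted p = 0.017). CXCL9 (median 0.0677 CPM, 0 to 0.452) and GBP6 (median 0.1146 CPM, 0 to 0.9874) lay near the floor. Their changes rest on few counts. Type I interferon targets were also followed. Of 14, none was called on day 13, and 13 were lower than on day 0 on each of days 28, 45 and 60, with median changes of -0.90, -0.74 and -0.95. Of 7 markers of CD8 T and NK cells, the cells that read class I, 1 rose and 2 fell on day 13. These were the NK receptor NCR1 (-0.47, SE 0.115, adjusted p = 0.00115), the perforin gene PRF1 (-0.32, SE 0.0898, adjusted p = 0.00492) and the granzyme gene GZMB (0.58, SE 0.2, adjusted p = 0.0245).

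Marker lists of other blood cells also moved on day 13. All 6 erythroid markers rose, led by HBA (3.98, SE 0.506, adjusted p = 1.19e-09), ALAS2 (3.55, SE 0.467, adjusted p = 3.89e-09) and HBM (3.61, SE 0.477, adjusted p = 4.18e-09). Of 6 platelet markers 5 rose, among them MPIG6B (0.85, SE 0.116) and PF4 (0.57, SE 0.117). Of 6 monocyte markers 3 fell, led by CD14 (-1.17, SE 0.118) and CD163 (-1.72, SE 0.175), and of 6 neutrophil markers 4 fell, led by S100A12 (-0.82, SE 0.137) and S100A8 (-0.86, SE 0.148). Of 4 plasma cell markers 3 rose, led by TNFRSF17 (0.62, SE 0.157). Of 7 B cell markers 2 rose, among them BLK (0.14, SE 0.0604), and none of 8 T cell markers was called.

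The markers had also moved at the steps where TAP1, NLRC5 and ERAP1 were called. On day 45 against day 0, 5 of 6 erythroid markers rose, led by HBB (3.66, SE 0.482), and 4 of 6 platelet markers rose. In the same comparison 2 of 6 monocyte markers fell, CD14 (-1.18, SE 0.116) and CD163 (-1.65, SE 0.171), and 3 of 6 neutrophil markers fell, led by S100A12 (-0.77, SE 0.136). Of the B cell markers 5 of 7 rose and BLK fell (-0.29, SE 0.0596), and of the T cell markers 1 of 8 fell, CD2 (-0.15, SE 0.0605). The summed CPM of the erythroid markers had a median of 1848 on day 45 (72.91 to 18940), and that of the neutrophil markers 1879 (982.4 to 2912). From day 28 to day 45, 3 of 6 platelet markers fell, among them MPIG6B (-0.53, SE 0.114) and PF4 (-0.48, SE 0.115), BLK fell (-0.36, SE 0.0596) and TNFRSF17 fell (-0.45, SE 0.152). No erythroid, monocyte or T cell marker was called between those days. The part of these shifts in the calls of the members was not tested.

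Whether the course of the pathway differed with disease was asked by comparing the changes from day 0 between BRD and healthy steers. No member was called on days 13, 28, 45 or 60, and neither was any other gene: the share called was 0%, 0%, 0% and 0%. At an unadjusted p under 0.05, 619, 863, 801 and 596 genes passed (3.27%, 4.56%, 4.23% and 3.15%), among them 2 members on day 13 and none later. DESeq2 called 17, 13, 25 and 13 genes. The 2 members were B2M and PSMB10. The B2M change was higher in BRD steers by 0.67 (SE 0.288, adjusted p = 1 in edgeR, 95% interval 0.09 to 1.24). The PSMB10 change was lower by 0.75 (SE 0.348, adjusted p = 1, interval -1.44 to -0.06). For the sum of B2M and LOC783680 the difference was 0.042 (SE 0.0998). That sum is nearly all LOC783680, and whether it holds reads of B2M from that row was not tested. For TAP1 on day 45 the interval was -0.30 to 0.14, for NLRC5 -0.24 to 0.23 and for ERAP1 -0.09 to 0.31.

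BRD steers alone had 2 members called on day 13, against 17.43% of all genes. PSMB10 fell from a median of 78.4 CPM on day 0 (27 to 162) to 49.51 CPM on day 13 (22 to 76.8, both n = 14), a log2 change of -0.68 (SE 0.234, adjusted p = 0.0394), and was lower in 13 of 14 steers. The largest falls were in BRD COMBO steers 18 (162 to 43.6 CPM) and 54 (119.2 to 34.75 CPM), and the sole rise was in steer 17 (27.01 to 31.14 CPM). Without steer 18 the call was lost (adjusted p = 0.122). In healthy steers the same gene had medians of 52.4 CPM (27.8 to 72.2, n = 12) and 51.75 CPM (30.82 to 108.8, n = 11), with a change of 0.07 (SE 0.258, adjusted p = 0.909). B2M rose in BRD steers from 7.86 CPM (2.7 to 10.20) to 9.86 CPM (4.28 to 31.2), a log2 change of 0.485 (SE 0.193, adjusted p = 0.0857), and was higher in 10 of 14. The highest values were those of steers 31 (31.2 CPM) and 18 (18.5 CPM). The call was lost without any 1 of 6 steers (18, 21, 27, 31, 41 or 43). The sum of B2M and LOC783680 changed by -0.155 (SE 0.0669, adjusted p = 0.118). It is nearly all LOC783680, and the source of the reads in that row was not tested, so it cannot show whether the B2M change holds. On day 45 ERAP1 (0.22, SE 0.0695, adjusted p = 0.0194) and NLRC5 (0.195, SE 0.0799, adjusted p = 0.0812) were called in BRD steers, 2 of 9 against 22.51% of all genes. The ERAP1 call was lost without steer 31, and that of NLRC5 without any 1 of 9 steers. No member was called in BRD steers on day 28 (20.05% of all genes) or day 60 (19.62%). In healthy steers no member was called on day 13 (10.95% of all genes), day 28 (20.98%), day 45 (8.555%) or day 60 (11.64%). NLRC5 in healthy steers on day 45 had a change of 0.20 (SE 0.0863, adjusted p = 0.185).

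BRD and healthy steers were also compared on each day, averaging over the 3 programs. No member was called on day 0 (0.01584% of all genes), day 13 (0%), day 28 (0.005281%), day 45 (0%) or day 60 (0.005281%), and the number of all genes called was 3, 0, 1, 0 and 1. At an unadjusted p under 0.05, 2, 1, 1, 1 and 0 members passed in edgeR, against 7.11%, 3.78%, 8.63%, 4.22% and 3.64% of all genes. On day 0, PSMB10 was 0.71 higher in BRD steers (SE 0.264, adjusted p = 0.457) and TAP1 0.19 higher (SE 0.0951, adjusted p = 0.698). The day 0 estimates of 8 members were above 0 and that of B2M was -0.03, with a median of 0.18 against 0 over all genes. On day 13, B2M was 0.68 higher (SE 0.234, adjusted p = 1), and on day 28 0.47 higher (SE 0.226, adjusted p = 0.569). For the sum of B2M and LOC783680 the differences were 0.053 (SE 0.0796) and 0.164 (SE 0.0774, adjusted p = 0.559). That sum is nearly all LOC783680, and whether the LOC783680 row holds reads of B2M was not tested. The sum of TAPBP and ZBTB22 was 0.137 higher on day 0 (SE 0.0547, adjusted p = 0.525) and 0.161 higher on day 28 (SE 0.0547, adjusted p = 0.508). On day 45, TAP2 was 0.31 higher (SE 0.125, adjusted p = 1), with 220 to 523 CPM in BRD steers (median 377 CPM) and 199 to 400 CPM in healthy steers (median 298 CPM). None of these passed, and the groups overlap in each. The labels give each steer 1 pen, although by the study's methods the steers were moved between pens at regular intervals, so the label stands for a pen group. All COMBO healthy steers belonged to pen group 5 and all COMBO BRD steers to pen group 6, so disease and pen group cannot be told apart there. Within the pen groups that held both labels, with pen as a covariate, PSMB10 was 0.56 higher on day 0 (SE 0.316) and TAP2 0.41 higher on day 45 (SE 0.155), again with no call.

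The supplement programs were compared in pairs on each day, separately in healthy and in BRD steers. Over the 15 comparisons in healthy steers, 0 of 135 member tests were called, against 0.03832% of all tests, and 10 (7.41%) had an unadjusted p under 0.05, against 7.46% of all tests. Over the 15 in BRD steers, 0 of 135 were called, against 1.547% of all tests, and 9 (6.67%) had an unadjusted p under 0.05, against 10.9% of all tests. Pooled over the 15 comparisons, both shares of the members were near or below that of all tests. The BRD tests were not spread evenly. On day 0, 4 of 9 members passed this level between COMBO and INR, against 2276 of 18477 genes. Between AAC and COMBO 3 of 9 passed, against 4238 genes. The members' median log2 changes were 0.457 (COMBO over INR) and -0.40 (AAC over COMBO), against -0.013 and 0.019 over all genes. DESeq2 also called 0 members in healthy and in BRD steers. Calls appeared when 1 steer was left out. Without BRD COMBO steer 16, which left fewer than 3 COMBO steers, 6 tests were called, all on day 0. This steer had the lowest NLRC5 of the BRD COMBO steers on day 0. TAP1, NLRC5 and PSMB9 were then higher in COMBO than in AAC and INR. For TAP1 against AAC the log2 change was -0.645 (AAC over COMBO, adjusted p = 0.011). Leaving out 1 BRD steer at a time gave 275 to 3590 of all genes between AAC and COMBO on day 0. Between COMBO and INR it gave 14 to 1532. Without healthy INR steer 10, PSMB9 was higher in AAC than in INR on day 13 (0.635, adjusted p = 0.0912). In that comparison, leaving out 1 healthy steer at a time gave 0 to 725 of all genes.

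Levels by program over all days overlapped throughout. Medians of TAP1 were 336 CPM in healthy AAC, 358 in healthy COMBO and 346 in healthy INR steers, and 344, 412 and 371 CPM in the same programs among BRD steers. Medians of ERAP1 were 106.2, 82.02 and 102.2 CPM in healthy and 109.2, 103.3 and 96.5 CPM in BRD steers, in that order. For PSMB8 they were 360, 338 and 343 CPM in healthy and 339, 345 and 372 CPM in BRD steers.

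NLRC5 on day 0 was measured as follows. Healthy COMBO steers had 442, 461, 537 and 569 CPM, healthy INR steers 363, 363, 402 and 414 CPM, and healthy AAC steers 325, 339, 462 and 467 CPM. The COMBO and INR values do not overlap there, and the log2 difference was 0.39 (SE 0.145, adjusted p = 0.403 in edgeR). In BRD steers, COMBO had 411, 608 and 682 CPM and INR 331 to 551 CPM (median 425 CPM, n = 7), a difference of 0.41 (SE 0.159, adjusted p = 0.25). AAC BRD steers had 404, 410, 420 and 487 CPM. TAPBP on day 60 was 428, 391 and 499 CPM in COMBO and 113.1, 117.9, 118.1, 138, 282, 377 and 401 CPM in INR BRD steers, a difference of 0.98 (SE 0.374, adjusted p = 0.99) that rests on the row whose neighbour ZBTB22 varies against it. No labelled pen group held steers of different programs, so program and pen group cannot be told apart.

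Between animals, ERAP1 had the largest share of stable differences. Differences between animals made up 77.2% of the variance of its log2 CPM, a share at percentile 94.3 of all genes tested, while the median over all genes was 42.1%. In the other members the share was 20.9% to 39.1%, and day within disease label took 5.02% to 9.91% over all 9. In animal 40 ERAP1 was at 34 to 55.3 CPM over 5 days, in animal 57 at 61 to 68.2 CPM and in animal 6 at 66.2 to 76.3 CPM. The lowest of these, 34 CPM, was the day 60 library of animal 40. Low RNA integrity was noted for that library in the methods. In animals 3 and 49 it was at 111.6 to 132 CPM and 114.3 to 165 CPM. Every library of animals 40, 57 and 6 lay below every library of animals 3 and 49. The highest medians were those of animals 43 (149 CPM), 49 (136 CPM) and 18 (135 CPM), and both labels occurred at either end.

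**Figure D4:**
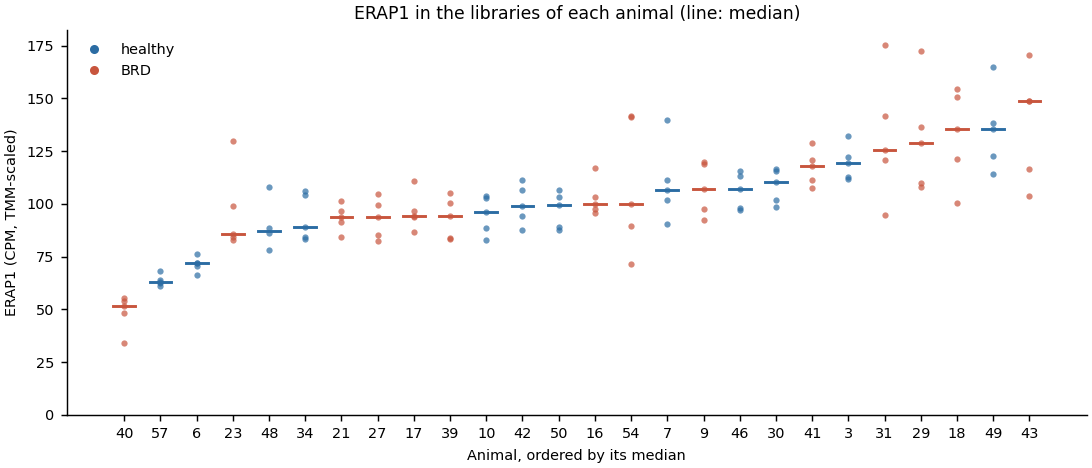
ERAP1 (vertical axis, TMM-scaled CPM from 0) in the libraries of each of 26 steers, ordered by the animal's median (horizontal line), in blue for healthy and red for BRD. Animals 40, 57 and 6 stay at 76.3 CPM or less on all days.

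Across libraries the genes fell into pairs of unequal closeness, given here as a description, since libraries of 1 animal are not independent and share depth and cell make-up. Over 36 pairs, Pearson's r of log2 CPM had a median of 0.24 (-0.10 to 0.81). PSMB8 and PSMB9 were closest (0.81), then TAP1 and NLRC5 (0.75), TAP1 and PSMB9 (0.69) and TAP1 and PSMB8 (0.63). TAP1, PSMB9 and PSMB8 lie side by side on the chromosome in the RefSeq order, and the part of this order in their r was not tested. PSMB10, which lies elsewhere, had r of 0.56 with PSMB9 and 0.50 with PSMB8. With the means of animal and day removed, r was 0.86 for PSMB8 and PSMB9, 0.83 for TAP1 and NLRC5 and 0.73 for NLRC5 and ERAP1, whose r over the raw values was 0.47. B2M had r between -0.10 and 0.09 with every other member, and TAPBP between -0.03 and 0.27. The pump's chains TAP1 and TAP2 reached 0.42, and TAP2 had r of 0.42 with PSMB9 and 0.03 with PSMB8.

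**Figure D5:**
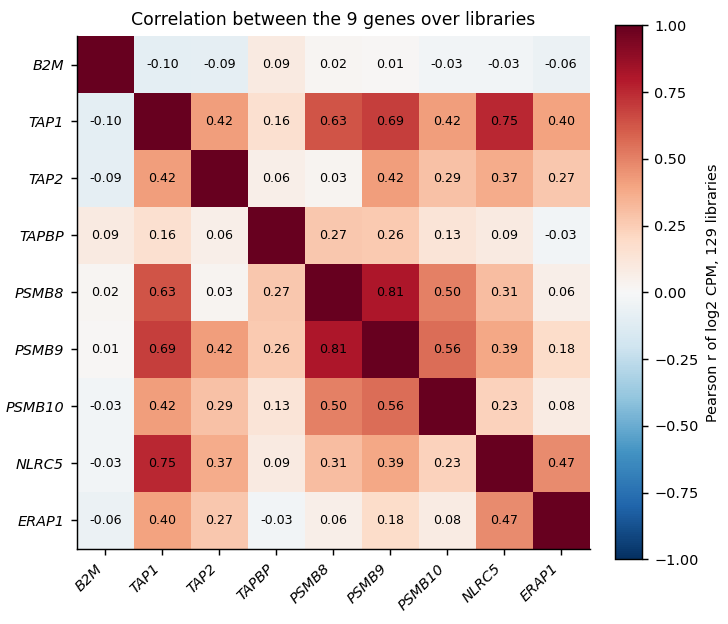
Pearson's r of log2 CPM between each pair of the 9 genes over all libraries, from blue (-1) to red (1). PSMB8 with PSMB9 and TAP1 with NLRC5 are the strongest pairs, and the B2M row and column are close to 0.

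The 10 genes most like the mean of the members' standardised log2 CPM over all libraries were PSME2 (r = 0.85), NUB1 (0.79), LAP3, WARS and PSME1 (0.78 each), BPNT1 (0.77), OGFR and PSMA2 (0.76 each), FUNDC1 (0.75) and SDHAF2 (0.73). PSME1 and PSME2 are the subunits of the interferon-inducible proteasome activator, and LAP3 is a peptidase of the cytosol. Gene by gene, TAP1 was most like LAP3 (0.85), and the genes most like NLRC5 included LAP3 (0.85) and IRF1 (0.84). PSMB9 was most like PSME2 (0.91), PSMB8 most like PSMB9 and then NDUFB8 (0.77), and PSMB10 most like PSME1 (0.56). ERAP1 was most like CEP162 (0.66), TAP2 most like SARS (0.50), TAPBP most like RGL2 (0.50) and B2M most like IFFO1 (0.37).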

How the data were processed

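Whole blood RNA of 26 steers was sequenced by the authors with a stranded mRNA kit. Per the labels, reads passed FastQC 0.11.9 and Trimmomatic 0.39, were aligned with HISAT2 to ARS-UCD1.3 and assembled with StringTie 2.2.0, and the authors deposited raw gene counts that prepDE derives from coverage, so a count is an estimate of reads and overlapping or neighbouring genes can share them. The table has 32395 rows and 129 libraries, and totals are given in the report. Groups came from the disease, treatment and day labels. The members were found by symbol, and members and lists were chosen with earlier results of these data known.

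Counts were tested with edgeR 4.0.16 in R 4.3.3 (filterByExpr, TMM factors of 0.906 to 1.09, common dispersion as in the study, quasi-likelihood F-test, Benjamini-Hochberg adjusted p below 0.10 over 18937 genes for day and disease, 18269 for supplements in healthy and 18477 in BRD steers). Days were compared with animal as a block. Libraries of 1 animal deviated together (median r of 0.371, above 0.1 in 26 of 26 animals, against -0.01 between animals). Disease and supplement groups were compared as means of disease, treatment and day, without a block. Each mean holds libraries of 1 day, but the spread was estimated from the libraries of all days together. Libraries of 1 animal on different days were treated as independent there, so these SEs and p-values do not allow for the repeats. Alternatives were DESeq2 1.42.0, limma 3.58.1 (voom), RLE factors, a trended dispersion, no filter or a stricter one, other terms, shared pens and leaving out libraries or animals. The scripts were tested on simulated counts. By rule, all members were named in each comparison, from each list up to 3 called genes of lowest p on day 13, between labels and in the change between labels, and the 10 genes most like the members' mean. JSP.1, BOLA-NC1, IRF1, list genes given for days after day 13, the neighbouring rows and the genes most like a single member were named after their values were seen. Gene order came from RefSeq (ARS-UCD2.0), for which no coordinates are given. Values of some genes are not reported here.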

Additional observations from a re-analysis of the deposited data

Results flagged for a closer look

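In 9 combinations of a gene and a group of 4, a single library stood far from the others, by Dixon's ratio of gap to range. With 216 combinations of gene and group examined, chance alone would give about 10.8. The same steers recur across genes, so these combinations are not independent. B2M was 3.88 CPM in healthy COMBO steer 3 on day 0, with 8.14 to 8.95 CPM in the others. TAP1 was 517 CPM in healthy INR steer 7 on day 28 (others 330 to 343 CPM), where PSMB10 was 27 CPM (others 55.5 to 60.8 CPM). TAP2 was 379 CPM in healthy INR steer 10 on day 0 (others 283 to 290 CPM). In healthy COMBO steer 57, TAPBP was 306 CPM on day 28 (others 384 to 400 CPM) and NLRC5 was 575 CPM on day 13 (others 376 to 392 CPM). PSMB10 was 104.7 CPM in BRD AAC steer 31 on day 45 (others 60.9 to 65.1 CPM). ERAP1 on day 0 was 128.7 CPM in BRD AAC steer 41 (others 91.28 to 94.87 CPM) and 139 CPM in healthy AAC steer 49 (others 88.5 to 96.9 CPM).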

How the results depend on the processing

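The number of members called moved in several day comparisons and, when 1 steer was left out, in the supplement comparisons. On day 13 against day 0 it was 0 at a threshold of 0.05, without a filter on low counts, without the day 13 library of animal 50 and without the block (no animal term), and 3 with neighbouring rows summed. On day 45 it was 1 without the block. From day 28 to day 45 it was 1 at the threshold of 0.05 and 0 without the block. From day 45 to day 60 it was 0 at the threshold of 0.05, without a filter and without the block, and 2 without the day 60 library of animal 40. With rows summed it was 2 on day 28 and 2 on day 60 against day 0. Each of these counts, and the 3 on day 13, includes the B2M sum, which is nearly all LOC783680. Whether the LOC783680 row holds reads of B2M was not tested. The day 13 change of that sum in BRD steers was -0.155. The causes were not tested. Leaving out each animal in turn gave 0 to 1 members on day 13, 1 to 5 from day 28 to day 45, 0 to 3 from day 45 to day 60, 0 to 6 over the supplement comparisons in BRD steers and 0 to 1 in healthy steers. Within BRD steers it was run for days 13 and 45 only, an alternative added after the values were seen; it was not run for day 28 or 60 against day 0, or for day 13 to 28. Leaving out 1 steer moved the number of all genes called between BRD and healthy steers on day 0 from 3 to between 0 and 317, and that between AAC and COMBO in BRD steers on day 0 from 2382 to between 275 and 3590.

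Without the block, 3739, 4259, 3167 and 3596 of all genes were called on days 13, 28, 45 and 60 against day 0, where the blocked fit called 6104, 6787, 5662 and 6163. From day 13 to 28, 28 to 45 and 45 to 60 it called 88, 2681 and 305 genes, against 307, 5349 and 1451. For day 13 to 28, DESeq2 called 537, voom 160 and no filter 190 genes. Between BRD and healthy steers, day by day from day 0 to day 60, DESeq2 called 98, 36, 40, 31 and 30 genes, the shared pens 1677, over 100, 66, 7 and 13, and the fit without treatment 9, 43, 14, 2 and 4, against 3, 0, 1, 0 and 1, with no member called in any of these. Of the supplement tests, DESeq2 called 7284 in BRD steers and 1144 in healthy steers, and no filter called 2743 and 67, against 4287 in BRD steers and 0.03832% of 274035 in healthy steers. In healthy steers voom called 65, the fit without the day 13 library of animal 50 called 58, and 1 fit of all libraries called 177. For the change from day 0 between programs in healthy steers, the fit with the replicate block called 6 genes. The main fit, without a block, called 66 on the days after day 0. It compared levels on each day and not changes, so the 2 counts answer different questions.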
